A study of Mus musculus with 56 samples.

Results

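The arrays described here measured what 6 h of transforming growth factor β1 (TGF-β1) did to RNA levels in primary keratinocytes, the cells that build the epidermis. They are the 7 arrays, of 56 in the series, whose labels name primary cells of Balb/c mice and 6 h of TGF-β1. Keratinocytes of newborn Balb/c mice received TGF-β1 at 1 ng/ml for 6 h, and on each array their RNA was set against RNA of untreated Balb/c primary keratinocytes. The treated RNA carried the dye Cy5 and the untreated RNA the dye Cy3 on all 7 arrays. Other arrays of the same dye orientation served for comparison. They held Balb/c keratinocytes transduced with a replication-defective retrovirus carrying Ha-ras (ras keratinocytes) and given TGF-β1 for 6 h, set against untreated ras keratinocytes (7 arrays). They also held primary keratinocytes given TGF-β1 for 1 h (6 arrays), 24 h (6 arrays) and 48 h (3 arrays), set against untreated primary cells. The design text mentions multiple arrays for a sample of a time point, so the 7 arrays may come from fewer than 7 cultures. Their p-values would then reflect array-to-array spread alone. Each value is a log2 ratio, likely of treated over untreated RNA, where 1 stands for a doubling and -1 for a halving. A ratio holds no level of a transcript, so the labelled cell type could not be checked against keratinocyte markers, and fewer cells of a type and less RNA per cell cannot be told apart.

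TGF-β1 binds a pair of type II and type I receptor kinases, which phosphorylate SMAD2 and SMAD3. These enter the nucleus with SMAD4 and activate or repress genes together with other transcription factors. In keratinocytes TGF-β1 is known for stopping proliferation in G1 through the inhibitor Cdkn2b and loss of Myc and the Id proteins, and for inducing genes of the matrix, of adhesion and of the actin cytoskeleton.

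The 7 arrays differed among themselves more than they shared. The SD of 8905 features (named genes and unnamed probes) was 1.65 on replicate 1, against 0.19 to 0.72 on the other 6 arrays. Replicate 1 held 433 features beyond a size of 4 on the log2 scale, and the other arrays held 0 to 57. Over all features the correlation between 2 arrays lay between -0.355 and 0.218, and each array's correlation with the mean of the other 6 between -0.068 and 0.242. For the 7 ras arrays at 6 h the correlation with the mean of the others of their group ran from -0.084 (ras replicate 6) to 0.440. Replicate 4 correlated at -0.355 with replicate 2, at -0.261 with replicate 7 and at -0.222 with the mean of the ras arrays at 6 h. With replicates 1, 3, 5 and 6 it correlated at 0.093, 0.151, 0.055 and 0.218, and with the mean of the other 6 arrays at 0.015. Over all features it thus correlated negatively with replicates 2 and 7 and weakly positively with replicates 1, 3, 5 and 6. The mean of the other 6 arrays holds the wide replicate 1, so the value of 0.015 cannot settle whether replicate 4 opposed the group. Replicate 4 had the opposite sign to the other 6 arrays for many of the genes named below. Arrays of 1 orientation that oppose each other leave the direction of a ratio unsettled, so counts of calls are given with all 7 arrays, without replicate 4, without replicates 1 and 4, and with the sign of replicate 4 turned, and genes are given under those settings where they bear on a call. Earlier results of these arrays had already shown replicate 4 to run against known targets. For those genes its removal, or the turning of its sign, is therefore a description and adds no support. This holds for each adjusted p given below with replicate 4 left out or turned.

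**Figure D1:**
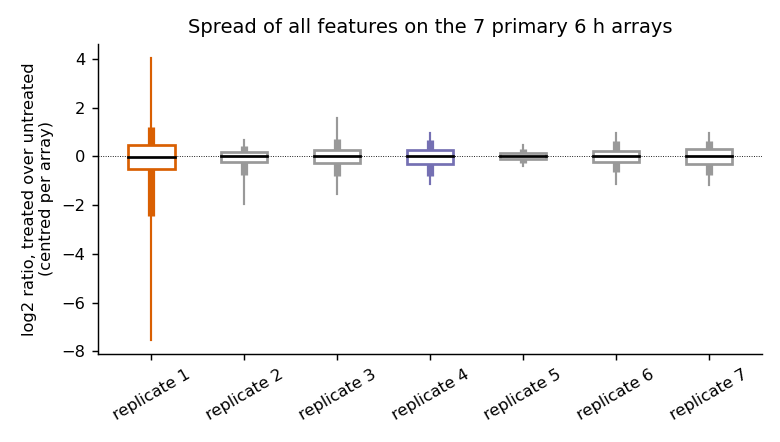
The log2 ratios of 8905 features on each of the 7 arrays of primary keratinocytes at 6 h, after centring on the median; boxes run from the lower to the upper quartile, thick bars run from the 5th to the 95th percentile and thin bars leave out 1% of the features at each end. Replicate 1 (SD 1.65) was wider than the others (SD 0.19 to 0.72), and replicate 5 the narrowest.

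Klf5 was the only gene that passed the test over the 7 arrays. Klf5 is a Krüppel-like transcription factor of proliferating basal epithelial cells. Its log2 ratios on replicates 1 to 7 were -1.77, -0.70, -1.27, 0.26, -0.74, -1.03 and -1.003. It was thus lower in treated cells on 6 of 7 arrays, and replicate 4 alone was above 0. Its mean of -0.90 ± 0.16 (SE, n = 7) had an adjusted p of 0.0111 in limma over 8905 features. It corresponds to 0.54 times the Klf5 RNA of untreated cells in the likely direction, and to 1.86 times if the ratios run the other way. The exact two-sided permutation test of its 7 signs gave p = 0.0312, where 0.0156 is the smallest value the design allows. Klf5 was picked from 8905 features on these same arrays, so this p is no independent check of the call. The call was lost without replicate 1 (-0.75, adjusted p 0.208), replicate 3 (-0.83, 0.152), replicate 6 (-0.87, 0.0839) or replicate 7 (-0.88, 0.0782). The SE of 0.16 rests on a spread shared by 49 arrays of all groups. With only the 7 arrays in the limma fit the SE was 0.21, the adjusted p was 0.786 and the call was lost as well. Without replicate 4 the mean was -1.09 with an adjusted p of 9.9e-05, and without replicates 1 and 4 it was -0.95 with an adjusted p of 0.00462. With the sign of replicate 4 turned it was -0.97 with an adjusted p of 0.000475.

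Across all features that single call is 0.0112% of those tested. At an unadjusted p under 0.05 in limma 839 features (9.42%) differed from 0. Of these, 239 features (2.68%) were higher and 600 (6.74%) lower in treated cells. The count of 839 depended on the wide replicate 1. It was 316 without replicate 1, 410 without replicates 1 and 4, and 703 to 1030 with any other single array left out. Without replicates 1 and 4 there were 3 calls (0.0337%), Klf5, Adamts1 and Pdgfb. Without replicate 4 alone there were 9 (0.101%). Of these, Klf5, Adamts1, Id3, Net1 and Snapin were lower and Pdgfb, Tnf, Rhob and Marcksl1 higher. With the sign of replicate 4 turned there were 25 (0.281%), 18 higher and 7 lower, Skil, Csf1, Ccl2 and Edn1 among the higher and Id1 among the lower. That sign was turned after the data were seen, so these 25 calls add no support.

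Adamts1, a secreted protease that cleaves matrix proteoglycans, had log2 ratios of -1.48, -0.84, -1.71, 0.51, -0.71, -1.30 and -0.54 on replicates 1 to 7. Its mean of -0.87 ± 0.19 (SE, n = 7) had an adjusted p of 0.117 over 7 arrays and 0.0435 without replicates 1 and 4, where the mean was -1.02. With replicate 4 turned it averaged -1.01 (adjusted p 0.0019). The 6 arrays other than replicate 4 lay wholly below 0. Pdgfb, the B chain of platelet-derived growth factor, had log2 ratios of 1.61, 1.11, 1.18, -1.09, 0.93, 1.12 and 1.37. All arrays but replicate 4 were at 0.93 or above. Its mean was 0.89 ± 0.23 (adjusted p 0.225) over 7 arrays and 1.14 (adjusted p 0.0435) without replicates 1 and 4, and 1.22 (adjusted p 0.00275) without replicate 4 alone. With replicate 4 turned it was 1.203 (adjusted p 0.000887). Neither Adamts1 nor Pdgfb was called with only the 7 arrays in the limma fit (adjusted p 0.786 for each). Without replicate 1 Adamts1 averaged -0.76 and Pdgfb 0.77 (adjusted p 0.836 and 0.9998).

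Of the other 6 genes called without replicate 4, Id3 is given with the Id family. Tnf, an inflammatory cytokine, had log2 ratios of 0.47, 1.40, 0.98, -0.01, 0.11, 0.56 and 1.36. Its mean was 0.81 without replicate 4 and 0.70 over 7 arrays (adjusted p 0.0387 and 0.157), and 0.70 with replicate 4 turned (adjusted p 0.0489). Rhob, a small GTPase of endosomes and the actin cytoskeleton, had log2 ratios of 0.74, 0.68, 0.40, -0.92, 0.77, 0.52 and 1.31. Its mean was 0.74 without replicate 4 and 0.50 ± 0.17 over 7 arrays (adjusted p 0.0387 and 0.291), and it was also called with array weights (0.64, adjusted p 0.00826). Both genes were thus at or above 0.11 on 6 arrays, and replicate 4 lay below 0. Marcksl1, an actin-binding protein, averaged 0.57 without replicate 4, where it stood at -1.54, and 0.27 ± 0.16 over 7 arrays (adjusted p 0.0387 and 0.648). Net1, an exchange factor for RhoA, averaged -0.97 without replicate 4 and -0.86 ± 0.19 over 7 arrays (adjusted p 0.0387 and 0.117). Its value on replicate 3 was -2.65, and without that array the mean was -0.56. Snapin averaged -1.36 without replicate 4 and -1.23 ± 0.27 over 7 arrays (adjusted p 0.0387 and 0.117). Its value on replicate 1 was -4.52, and without that array the mean was -0.69. Net1 was also called with all 56 arrays, the reversed ones turned and a dye term (adjusted p 0.0189), and Snapin with each array scaled to the median SD (adjusted p 0.0399).

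**Figure D2:**
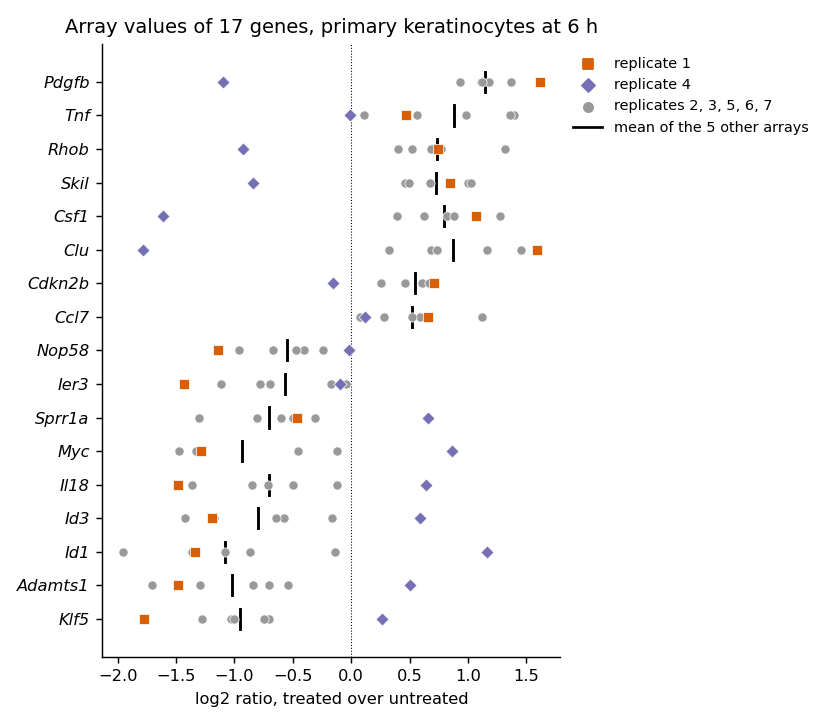
Log2 ratios of 17 genes on the 7 arrays of primary keratinocytes at 6 h, with replicate 1 as orange squares, replicate 4 as violet diamonds, the other 5 arrays as grey circles and the mean of those 5 as a black line. Replicate 4 lies across 0 from the other 6 arrays for 14 of the 17 genes. Ccl7 (all 7 arrays above 0) and Nop58 and Ier3 (all 7 below 0) are the exceptions. The 17 were picked from the genes of the text, and genes without the pattern, such as Klf10, Smad7 and Cxcl5, are not shown. The share of all features with this pattern was not counted, so 14 of 17 does not describe the array as a whole.

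The RefSeq promoter table (GRCm38.p6) held a single start for 5 of the 9 genes called without replicate 4. Their 250 bases upstream of the start are shown because these genes moved in both directions on the same arrays. The motif CAGAC, read on either strand as CAGAC or GTCTG, is the core of the sequence that SMAD3 and SMAD4 bind, and its matches stand in capitals. It occurred 2 times upstream of Id3, 1 time each upstream of Marcksl1, Rhob and Tnf, and in no place in the window of Adamts1. Of 32817 windows of the same length in the table, 42.2% held it, so a match is a description of these letters and not a site. The sequences run 5′ to 3′ towards the start.
Adamts1, chr16:85803114-85803363, minus strand: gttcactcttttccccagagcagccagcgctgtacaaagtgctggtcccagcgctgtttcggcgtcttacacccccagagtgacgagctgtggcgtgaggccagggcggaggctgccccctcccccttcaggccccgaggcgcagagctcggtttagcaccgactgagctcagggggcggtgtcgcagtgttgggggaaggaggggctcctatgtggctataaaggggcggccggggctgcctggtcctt
Id3, chr4:136143572-136143821, plus strand: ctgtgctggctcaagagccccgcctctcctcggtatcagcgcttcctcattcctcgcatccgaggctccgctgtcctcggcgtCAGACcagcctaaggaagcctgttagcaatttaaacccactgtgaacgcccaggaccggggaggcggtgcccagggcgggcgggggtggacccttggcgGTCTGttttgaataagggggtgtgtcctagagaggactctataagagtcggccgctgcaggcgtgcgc
Marcksl1, chr4:129513331-129513580, plus strand: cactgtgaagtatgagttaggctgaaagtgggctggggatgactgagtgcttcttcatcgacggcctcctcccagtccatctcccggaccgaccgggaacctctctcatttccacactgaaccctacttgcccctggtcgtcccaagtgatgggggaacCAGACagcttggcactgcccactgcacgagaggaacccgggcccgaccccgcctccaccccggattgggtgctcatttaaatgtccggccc
Rhob, chr12:8500010-8500259, minus strand: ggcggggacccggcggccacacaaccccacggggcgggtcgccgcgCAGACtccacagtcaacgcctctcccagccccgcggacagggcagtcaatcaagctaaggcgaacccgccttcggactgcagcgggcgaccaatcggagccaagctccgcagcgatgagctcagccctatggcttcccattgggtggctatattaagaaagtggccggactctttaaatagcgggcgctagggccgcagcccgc
Tnf, chr17:35202008-35202257, minus strand: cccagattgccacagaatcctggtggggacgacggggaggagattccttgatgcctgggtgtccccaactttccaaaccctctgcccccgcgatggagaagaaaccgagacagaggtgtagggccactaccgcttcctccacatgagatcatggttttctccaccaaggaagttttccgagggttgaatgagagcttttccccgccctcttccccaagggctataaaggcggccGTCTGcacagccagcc

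Among genes known as direct or typical targets of TGF-β and SMADs, 31 of 41 listed were measured and none passed the test in limma over the 7 arrays. At an unadjusted p under 0.05, 4 were higher and 3 lower, against 2.68% and 6.74% of all features. The mean was above 0 for 24 of the 31 (47.9% of all features), with a median of 0.13 (all features -0.01). The median on replicates 1 to 7 was 0.39, 0.37, 0.40, -0.67, 0.18, -0.08 and 0.34, so 5 arrays were above 0, replicate 6 just below it and replicate 4 far below it.

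The inhibitors of DNA binding Id1, Id2 and Id3, which hold basic helix-loop-helix factors away from DNA, were the members with the lowest means. Id1 had log2 ratios of -1.34, -0.86, -1.95, 1.17, -0.14, -1.08 and -1.36, and its mean was -0.80 ± 0.30 (SE, n = 7; adjusted p 0.317). Id3 had -1.19, -0.58, -1.42, 0.59, -0.16, -1.17 and -0.64, with a mean of -0.65 ± 0.18 (adjusted p 0.249) that passed the test without replicate 4 (-0.86, adjusted p 0.0387). With replicate 4 turned Id1 averaged -1.13 and Id3 -0.82 (adjusted p 0.0489 and 0.0111). Both were below 0 on every array but replicate 4. Id2 followed the same pattern at a mean of -0.50 ± 0.19 (adjusted p 0.324).

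Skil, a corepressor that binds SMADs, had log2 ratios of 0.85, 0.67, 0.46, -0.84, 0.49, 1.001 and 1.02. Its mean was 0.52 ± 0.20 over 7 arrays and 0.75 without replicate 4 (adjusted p 0.333 and 0.117), and 0.76 with replicate 4 turned (adjusted p 0.0489). Clu, the secreted chaperone clusterin, had 1.59, 0.69, 1.16, -1.78, 0.32, 0.74 and 1.45, and its mean of 0.60 ± 0.32 became 0.99 without replicate 4 (adjusted p 0.567 and 0.162). With replicate 4 turned it was 1.11 (adjusted p 0.0722). Both were above 0 on every array but replicate 4, where Clu had the lowest value of the 31 genes but for F3. Csf1, the growth factor of macrophages, had 1.07, 0.82, 0.62, -1.61, 0.39, 0.88 and 1.27, and its mean of 0.49 ± 0.25 became 0.84 without replicate 4 (adjusted p 0.535 and 0.117). With replicate 4 turned it was 0.95 (adjusted p 0.0296). Smad7, the inhibitory SMAD, gave no such pattern, with 1.35 on replicate 6 and -0.34 to 0.30 on the others. Timp1, an inhibitor of metalloproteinases, averaged 0.24 ± 0.22 with -0.77 on replicate 4 and 0.01 to 0.74 on the other arrays. The early target Klf10 averaged -0.22 ± 0.14, with 3 arrays above 0 and 4 below.

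The pathway's own components were measured too. Of 18 measured ligands, receptors and SMADs none passed the test in limma. Of these, 8 had means above 0 (44.4%, against 47.9% of all features), and the median was -0.04. At an unadjusted p under 0.05 there were 0 higher and 2 lower (11.1%, against 6.74% of all features). One was Tgfbr2, the type II receptor, at -0.33 ± 0.16 (adjusted p 0.52), with array values from -0.92 to 0.01. The other was Eng, a coreceptor, whose mean of -1.10 ± 0.41 came from -6.92 on replicate 1 and was -0.13 without that array. Smad3 averaged -0.16 ± 0.45.

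**Figure D3:**
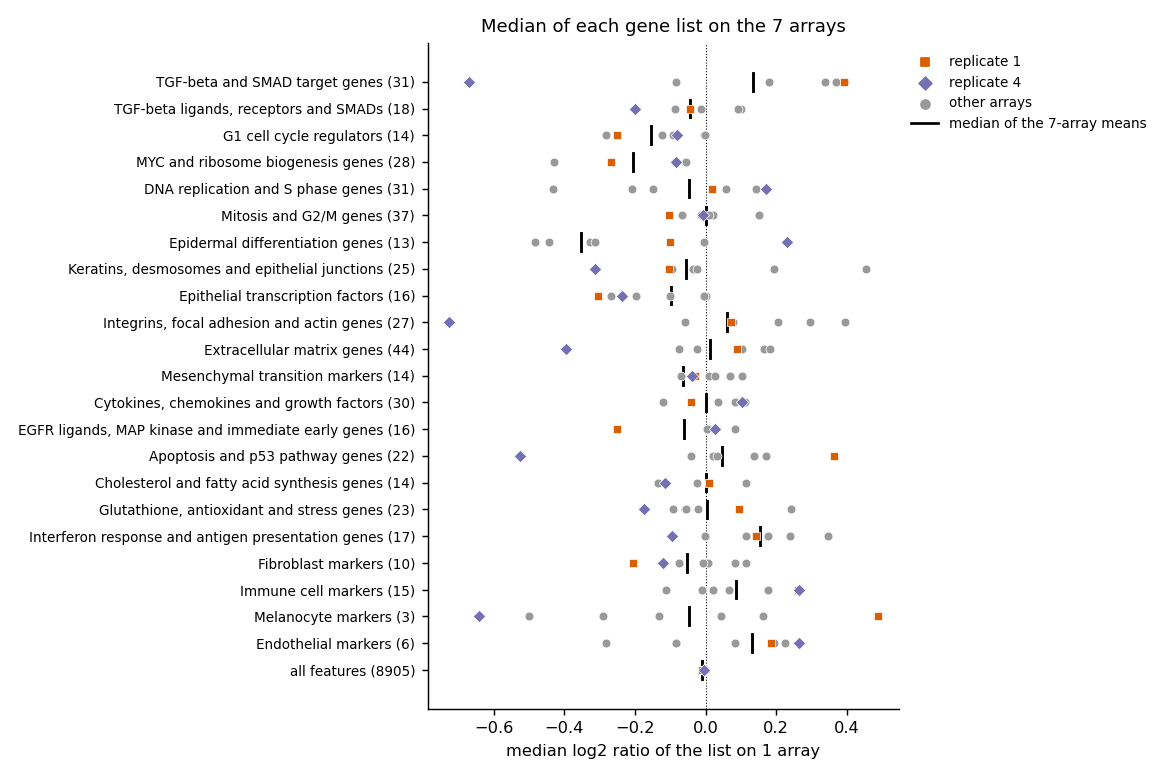
The median log2 ratio of 22 gene lists, and of all 8905 features, on each of the 7 arrays of primary keratinocytes at 6 h, with replicate 1 as orange squares, replicate 4 as violet diamonds, the others as grey circles and the median of the 7-array means as a black line; the number of measured genes stands after each name. Replicate 4 lay lowest for the TGF-β targets (-0.67), for integrins and actin genes (-0.73) and for matrix genes (-0.39), and highest for differentiation genes (0.23).

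Genes of growth were low on most arrays without passing the test. Of 28 MYC and ribosome biogenesis genes none was called in limma. There were 0 higher and 8 lower at an unadjusted p under 0.05 (28.6%, against 6.74% of all features lower). Of the 28, 4 had means above 0 (14.3%, against 47.9% of all features), and the median was -0.21. Unlike the target genes this list had medians below 0 on all 7 arrays, from -0.43 on replicate 6 to -0.06 on replicates 5 and 7, with -0.08 on replicate 4. Nop58, a core protein of small nucleolar RNPs, had log2 ratios of -1.14, -0.40, -0.48, -0.02, -0.24, -0.96 and -0.67, below 0 on all 7 arrays with a mean of -0.56 ± 0.18 (adjusted p 0.288). Myc itself, the transcription factor that drives this programme, had -1.29, -1.48, -1.33, 0.86, -0.12, -1.29 and -0.46, with a mean of -0.73 ± 0.32 (adjusted p 0.422). Its values were spread from -1.48 to -0.12 on the 6 arrays other than replicate 4. Gnl3 (nucleostemin) averaged -0.40 ± 0.19 and Srm, which makes spermidine, -0.28 ± 0.11 (adjusted p 0.486 and 0.338), with Srm at -0.19 without replicate 6.

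Cdkn2b, which encodes the G1 inhibitor p15, had log2 ratios of 0.71, 0.60, 0.72, -0.15, 0.26, 0.47 and 0.67. It was above 0 on 6 of 7 arrays, and its mean was 0.47 ± 0.20 over 7 arrays and 0.57 without replicate 4 (adjusted p 0.375 and 0.234). Of the 14 G1 regulators measured none was called in limma, with 1 higher (7.14%) and 3 lower (21.4%) at an unadjusted p under 0.05, against 2.68% and 6.74% of all features, and a median of -0.15. Cdk4, the kinase that p15 inhibits and 1 of the 3 lower, had a mean of -0.94 ± 0.31 that rested on -4.59 on replicate 1 and was -0.33 without it. DNA replication and mitosis genes had medians near 0. Of 31 replication genes 0 were higher and 2 (6.45%) lower at an unadjusted p under 0.05, with a median of -0.05, and Mcm5, a subunit of the replicative helicase, was below 0 on all 7 arrays with a mean of -0.36 ± 0.15. Of 37 mitosis genes 0 were higher and 1 (2.7%) lower, against 2.68% and 6.74% of all features, with a median of 0.00. The 1 gene was Kif23, a kinesin of cytokinesis, at -0.63 ± 0.20, and at -0.38 without its value of -2.11 on replicate 1.

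Epidermal differentiation genes lay below 0, as a list of 13 measured genes with a median of -0.35. Of their means 3 were above 0 (23.1%, against 47.9% of all features). None of the 13 genes was called in limma, and 0 were higher and 3 (23.1%) lower at an unadjusted p under 0.05, against 2.68% and 6.74% of all features. Without replicates 1 and 4 none of the 13 means was above 0, against 47.85% of all features, and the median was -0.34. Sprr1a, a precursor of the cornified envelope, had log2 ratios of -0.46, -0.81, -0.50, 0.66, -0.31, -1.31 and -0.60 and a mean of -0.48 ± 0.22 (adjusted p 0.449). Krt10, the keratin of suprabasal cells, averaged -0.40 ± 0.21 and Klk7, a protease of the cornified layer, -0.39 ± 0.22. For Sprr1a, Krt10 and Klk7 replicate 4 had the highest value of the 7. S100a9, a calcium-binding alarmin, averaged -0.99 ± 0.39, and -0.32 without replicate 1, where it stood at -4.98.

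Of the 16 epithelial transcription factors measured Klf5 was called in limma (0.0112% of all features were called), and 0 were higher and 4 (25%) lower at an unadjusted p under 0.05, against 2.68% and 6.74% of all features. Gata3, a factor of epidermal and hair follicle cells, averaged -0.31 ± 0.13, and -0.19 without its value of -1.07 on replicate 1. Ehf, an ETS factor of epithelia, averaged -0.60 ± 0.23, and -0.17 without replicate 1; its pair of probes gave means of -0.87 and -0.33. Of 25 keratins, desmosome and junction genes none was called, 0 were higher and 3 (12%) lower at an unadjusted p under 0.05, against 2.68% and 6.74% of all features. Over the 7 arrays the median was -0.05 with 12 means above 0 (48%, against 47.9% of all features). Without replicates 1 and 4 it was 0.07 with 16 above 0 (64%, against 47.85%). Gja1, the gap junction protein connexin 43, averaged -0.35 ± 0.15 and Pkp1, a desmosomal plakophilin, -0.46 ± 0.17 (adjusted p 0.375 and 0.31).

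Adhesion and matrix genes stayed near 0 on average and split by array. The median of 27 integrins, focal adhesion and actin genes was 0.06 over the 7 arrays and 0.17 without replicates 1 and 4. In the latter setting 20 of 27 means were above 0 (74.1%, against 47.85% of all features). At an unadjusted p under 0.05 in limma over the 7 arrays 1 (3.7%) was higher and 0 lower, against 2.68% and 6.74% of all features. The list median was 0.39 on replicate 7 and -0.73 on replicate 4. Itga5, the fibronectin receptor subunit, had log2 ratios of 0.80, 0.08, 0.55, -0.37, 0.38, 0.17 and 0.78 and a mean of 0.34 ± 0.19 (adjusted p 0.603). Actb, cytoplasmic actin, averaged 0.25 ± 0.14, and Itgav, another integrin subunit, -0.36 ± 0.24. Of 44 extracellular matrix genes 1 (2.27%) was higher and 5 (11.4%) lower at an unadjusted p under 0.05, against 2.68% and 6.74% of all features, and the median was 0.01. Of 14 mesenchymal transition markers none reached an unadjusted p under 0.05 in either direction, and the median was -0.06. Cdh2, N-cadherin, was above 0 on all 7 arrays, from 0.10 to 0.54, with a mean of 0.30 ± 0.22.

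Genes for secreted signals had means on both sides of 0. Of 30 cytokines, chemokines and growth factors none was called in limma, and 6 were higher (20.0%, against 2.68% of all features) and 3 lower (10%, against 6.74%) at an unadjusted p under 0.05. Pdgfb and Tnf, described above, were 2 of the 6. Ccl7, a monocyte chemokine, had log2 ratios of 0.65, 0.59, 0.28, 0.12, 0.08, 0.52 and 1.12, above 0 on all 7 arrays including replicate 4, with a mean of 0.48 ± 0.18 (adjusted p 0.317). Ccl2, its neighbour in function, averaged 0.62 ± 0.20 (adjusted p 0.288), with -0.55 on replicate 4 and 0.28 to 1.47 on the others. Il18, an interleukin made by keratinocytes, had -1.48, -1.37, -0.85, 0.64, -0.12, -0.71 and -0.49 and a mean of -0.63 ± 0.22 (adjusted p 0.298). Among 17 interferon response and antigen presentation genes 13 means were above 0 (76.5%, against 47.9% of all features), and the median was 0.15. Of the 17, 3 (17.6%) were higher and 1 (5.88%) lower at an unadjusted p under 0.05, against 2.68% and 6.74% of all features. The 3 higher genes were Usp18, which removes ISG15 from proteins, at 0.53 ± 0.23, Ifit1 at 0.41 ± 0.19 and Irgm1 at 0.32 ± 0.15.

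Of the immediate early genes, Ier3 was below 0 on all 7 arrays, with log2 ratios of -1.43, -0.18, -0.70, -0.09, -0.04, -1.11 and -0.79 and a mean of -0.62 ± 0.16 (adjusted p 0.225). Fos averaged 0.88 ± 0.56 through 5.16 on replicate 3, and 0.17 without that array. Markers of other cells that a skin culture could hold were few. Median means were -0.05 over 10 fibroblast markers, 0.09 over 15 immune, -0.05 over 3 melanocyte and 0.13 over 6 endothelial markers. At an unadjusted p under 0.05 in limma 0, 0, 0 and 1 (16.7%) were higher, against 2.68% of all features. In the same order 1 (10%), 1 (6.67%), 1 (33.3%) and 0 were lower, against 6.74%. Lists this short cannot set such counts apart from those shares. Array medians ran from -0.21 to 0.11 for the fibroblast, from -0.11 to 0.27 for the immune, from -0.64 to 0.49 for the melanocyte and from -0.28 to 0.26 for the endothelial list. Replicate 4 had the highest median of the immune and endothelial lists and the lowest of the melanocyte list. Lists of apoptosis and p53 genes (22 measured), cholesterol and fatty acid synthesis (14) and antioxidant and stress genes (23) had medians of 0.05, 0.00 and 0.00. Each had 1 gene higher and 1 lower at an unadjusted p under 0.05. In each direction that was 4.55%, 7.14% and 4.35%, against 2.68% of all features higher and 6.74% lower. The part of other cell types in any result was not tested.

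Few features kept 1 sign on all arrays. Over all features 78 (0.876%) were above 0 and 146 (1.64%) below 0 on all 7 arrays, among them 60 and 109 named genes. With random signs on independent arrays a share of 0.0156 would keep 1 sign on all 7, both directions counted. The 1.64% below 0 on all 7 arrays is above that share, though it counts 1 direction only. Random signs would still give many such features, so a shared sign alone is no result about a gene. The 60 include Eif2ak3, the endoplasmic reticulum stress kinase PERK, at 0.54 ± 0.15 (adjusted p 0.249), Sema4c, a membrane semaphorin, at 0.58 ± 0.16 (adjusted p 0.249), and Kdelr3, which returns proteins to the endoplasmic reticulum, at 0.46 ± 0.14 (adjusted p 0.288). Eif2ak3 and Sema4c were highest on the wide replicate 1, at 1.59 and 1.38. The array values of Kdelr3 ran from 0.01 on replicate 4 to 0.78. The largest mean of the 60 belonged to Ecm2 at 1.23 ± 0.62, and it came from 7.34 on replicate 3 and was 0.21 without it. Lix1l, at 0.69 ± 0.18, kept 0.42 without its value of 2.31 on replicate 3. Slc7a7, which was not among the 60 and averaged 1.31 ± 0.51, stood at 8.81 on replicate 3 and averaged 0.06 without it.

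Of the 109 genes below 0 on all arrays, those with the largest means rested on replicate 1. Prxl2c averaged -1.75 ± 0.51 with -9.31 on replicate 1, and -0.49 without it. Usp2, a deubiquitinase, averaged -1.52 ± 0.49, and -0.31 without its value of -8.82 on replicate 1. Map2k4, a kinase upstream of JNK, averaged -1.41 ± 0.34, and -0.70 without -5.70 on that array. That these genes were below 0 on every array is how they were chosen.

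The next comparison asked whether primary cells responded at 6 h as ras keratinocytes did. No feature differed between primary 6 h and ras 6 h in limma over 8905 features (0% called), with 409 (4.59%) at an unadjusted p under 0.05, 92 higher (1.03%) and 317 lower (3.56%) in primary cells. Cxcl5, a chemokine of neutrophils, came nearest. Its log2 ratios in primary cells on replicates 1 to 7 were 0.33, 0.39, 0.77, 0.65, -0.03, 0.05 and -0.43, against -2.29 to -0.35 on the 7 ras arrays. One primary array at -0.43 lay just below the highest ras array, so the groups overlapped there. The mean was 0.25 ± 0.31 in primary cells and -1.77 ± 0.31 in ras cells, a difference of 2.02 ± 0.44 with an adjusted p of 0.417. It passed the test when only the arrays of these 2 groups were fitted (adjusted p 0.0319), when each array was scaled to the median SD (0.0369) and with array weights (0.000267). This gene, F3 and Tgfbi were singled out after their values were seen.

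Mean ratios of 3 TGF-β targets were lower in primary than in ras cells without passing the test. F3, which encodes tissue factor, averaged 0.23 ± 0.22 in primary cells and 1.41 ± 0.22 in ras cells, a difference of -1.18 ± 0.32, with 0.57 in primary cells without replicate 4. Clu averaged 0.60 ± 0.32 in primary cells and 2.12 ± 0.32 in ras cells, and Tgfbi, a secreted matrix protein, 0.11 ± 0.36 in primary cells and 1.47 ± 0.36 in ras cells. Without replicate 4 the primary means were 0.99 for Clu and 0.35 for Tgfbi. These 3 differences had unadjusted p between 0.000581 and 0.0114 and adjusted p of 0.989. Klf5 averaged -0.90 ± 0.16 in primary cells and -0.60 ± 0.16 in ras cells, a difference of -0.30 ± 0.22 (adjusted p 0.9998).

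In ras cells 154 features were called at 6 h (1.73%), 121 higher (1.36%) and 33 lower (0.371%) than in untreated ras cells. These arrays share no labelled control with the primary arrays, though both have 1 dye orientation, so that a dye preference of a probe and a shared response cannot be told apart. Of the 121 called higher in ras cells, 115 had a mean above 0 in primary cells (47.9% of all features), 33 of them at an unadjusted p under 0.05 (27.3%, against 2.68% of all features). Of the 33 called lower in ras cells, 32 had a mean below 0 in primary cells (52.1% of all features), 17 of them at an unadjusted p under 0.05 (51.5%, against 6.74%). The median of the 121 was 0.22 in primary cells, 0.31 without replicates 1 and 4, and 0.71 in ras cells, where it was also the value that chose them. On replicates 1 to 7 the median of the 121 was 0.52, 0.39, 0.43, -0.58, 0.17, 0.20 and 0.61. On replicate 4, 18 of the 121 were above 0, against 79 to 113 on the other 6 arrays.

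**Figure D4:**
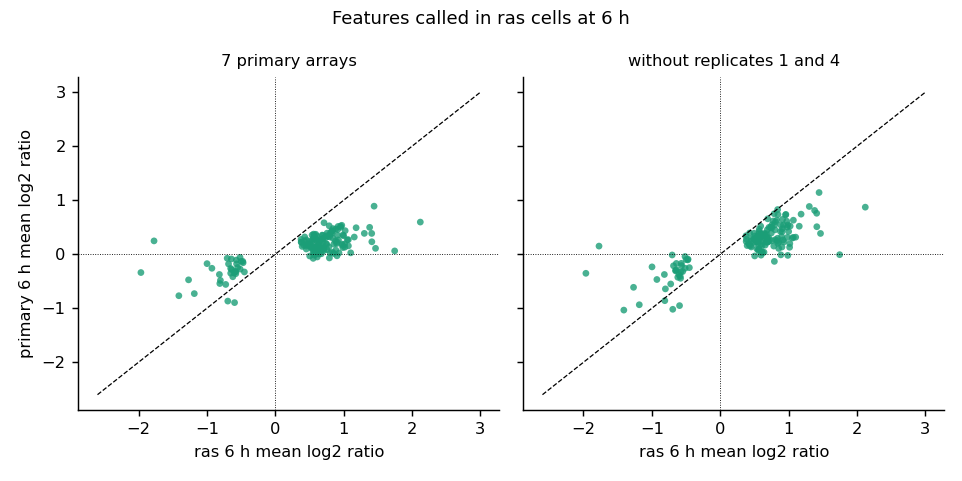
Mean log2 ratio at 6 h in primary keratinocytes (vertical) against ras keratinocytes (horizontal) for the 154 features called in ras cells, with all 7 primary arrays on the left and without replicates 1 and 4 on the right; the dashed line marks equal values. In the left panel 115 of the 121 features called higher in ras cells lie above 0 and 32 of the 33 called lower lie below 0.

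Set against other times of treatment in primary cells, the response at 6 h differed from that at 1 h for no feature in limma (0% called), with 187 (2.1%) at an unadjusted p under 0.05. Klf10, an early TGF-β target, averaged -0.22 ± 0.14 at 6 h and 0.84 ± 0.15 at 1 h. Its array values ran from -0.59 to 0.15 at 6 h and from 0.43 to 1.69 at 1 h. Its difference of -1.06 had an adjusted p of 0.0797 and among the alternatives passed the test only with the array numbers, grouped by their leading digits, as a random block (-1.04, adjusted p 0.0476). Whether the times share untreated RNA is not stated, so values are given side by side. Id1 averaged 0.54 at 1 h, -0.80 at 6 h, -0.72 at 24 h and -1.99 at 48 h. Csf1 averaged 0.27, 0.49, 1.53 and 3.07, and Pdgfb 0.77, 0.89, 1.15 and 0.53, at the same times.

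Between 6 h and 24 h 5 features differed in limma (0.0561%), all named and with the higher ratio at 6 h, and 373 (4.19%) reached an unadjusted p under 0.05. Sprr2a1, a cornified envelope precursor from a cluster of near-identical genes that its probe may not separate, had log2 ratios of -0.10, -0.69, -0.57, 0.23, -0.43, -0.97 and 0.02 on the 7 arrays at 6 h, against -3.61 to -1.64 on the 6 arrays at 24 h. The difference between 6 h and 24 h was 2.10 ± 0.25 (adjusted p 2.01e-06). Fabp5, the fatty acid-binding protein of the epidermis, had -1.59, -0.22, -0.48, -0.39, -0.18, -0.12 and 0.48 at 6 h, against -2.62 to -1.19 at 24 h. Replicate 1 at 6 h lay within the range at 24 h, and the difference was 1.69 ± 0.27 (adjusted p 0.000786). Fam162a, a mitochondrial protein induced by hypoxia, averaged -0.26 at 6 h and -1.40 at 24 h, a difference of 1.14 ± 0.18 (adjusted p 0.000786). Its lowest array at 6 h was replicate 1 at -0.70, and its highest array at 24 h stood at -0.73.

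Ppl, periplakin of the cornified envelope, averaged -0.15 at 6 h and -1.03 at 24 h (difference 0.88 ± 0.18, adjusted p 0.0378; -0.05 at 6 h without replicate 1), and Sptbn1, a β-spectrin, -0.14 at 6 h and -0.97 at 24 h (difference 0.83 ± 0.18, adjusted p 0.0462). The pair of probes of Sptbn1 disagreed at 6 h, with means of 0.31 and -0.58. With 1 array of either time left out, the adjusted p ran from 0.00583 to 0.152 for Ppl and from 0.0447 to 0.181 for Sptbn1, while the calls of Sprr2a1, Fabp5 and Fam162a held in each case. With only the arrays of these 2 groups in the fit, Sprr2a1 alone was called. Sprr2a1, Fabp5 and Ppl belong to the differentiation list, whose median was 0.08 at 1 h, -0.35 at 6 h, -0.78 at 24 h and -0.87 at 48 h. The list median of mitosis genes was -0.05, 0.00, -0.45 and -0.21 at those times.

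**Figure D5:**
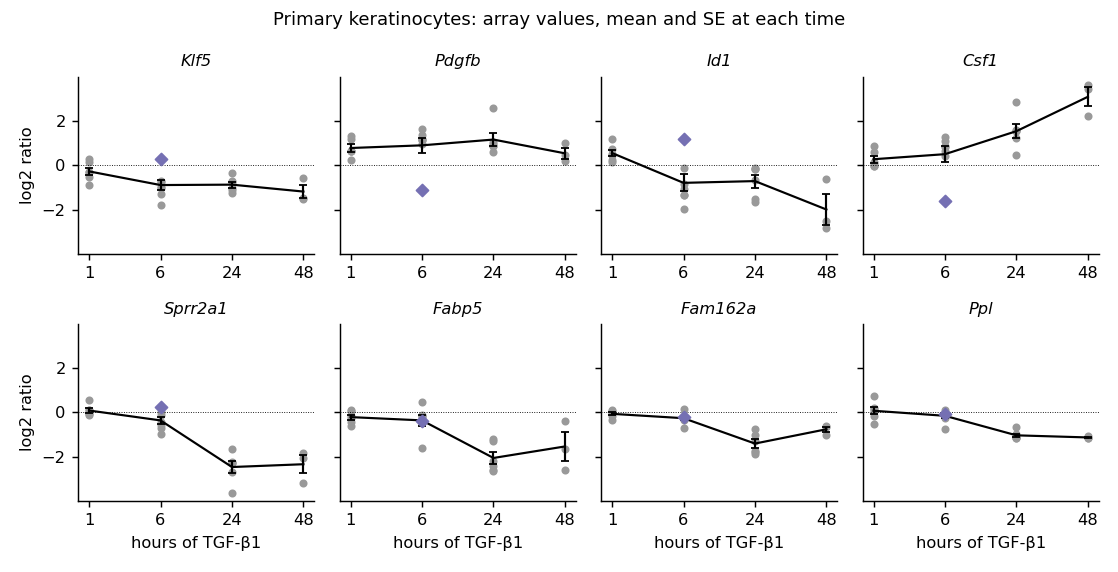
Log2 ratios of 8 genes in primary keratinocytes after 1, 6, 24 and 48 h of TGF-β1 (6, 7, 6 and 3 arrays), with arrays as grey points, replicate 4 at 6 h as a violet diamond and the mean with its SE over the arrays of a time in black; times are spaced evenly. Klf5 was at -0.90 by 6 h and -0.88 at 24 h, while Sprr2a1, Fabp5, Fam162a and Ppl were between -0.36 and -0.15 at 6 h and between -2.45 and -1.03 at 24 h.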

How the data were processed

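The authors deposited 1 log2 ratio per probe and array, with 9596 probes, 56 arrays and no missing value. Per the labels, channel 1 held untreated RNA in Cy3 and channel 2 treated RNA in Cy5 on 49 arrays. For the log base, image analysis, background correction and normalization, the sources used here give nothing. Sizes of up to 11.33 on the scale speak for base 2, and the direction, taken from the channel order, is likely. The 7 arrays with reversed dyes were left out, none of them of primary cells at 6 h.

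Each array was centred on its median. GEO's platform annotation gave 1 symbol for 7486 probes, several for 483 and none for 1627, and 7395 were matched to RefSeq symbols by Entrez number. Probes of a gene were averaged, which left 8905 features, 6795 of them named. Arrays give no counts, so their number limits the precision, and the median SE was 0.17. Group means over 49 arrays were fitted with limma 3.58.1 (R 4.3.3, lmFit and eBayes), two-sided, with Benjamini-Hochberg adjustment over all features at 0.05. An SE is that of this fit, whose spread per gene is shared by the 49 arrays, and n counts only the arrays of the mean. The fit was checked on simulated data. Signs of 7 arrays were permuted exactly (128 flips).

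Genes were named by a written rule: called genes, the 10 largest of one sign on all arrays in each direction (over 7 arrays and without replicates 1 and 4), up to 4 members per list, and genes named in earlier results. The members and lists were chosen with earlier results of these data known. Id2, Ccl2, Gnl3, Srm, Cxcl5, Edn1, Net1, Marcksl1, F3, Tgfbi, Gata3, Smad3 and Ank3 were added after their values were seen. Alternatives left out arrays, changed the centring, scaling, weights, blocks or arrays fitted, or turned the sign of replicate 4, the last chosen after seeing the data. Promoter sequences are RefSeq's (GRCm38.p6).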

Additional observations from a re-analysis of the deposited data

Results flagged for a closer look

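Within the 7 arrays of primary keratinocytes at 6 h, values were picked out where the gap between 1 array and its nearest neighbour took up an unusual share of the whole range by Dixon's test, which flags about 1 in 20 groups by chance. Of 91 values checked 26 were picked out. Many of the genes checked had been chosen on these same arrays for a large mean, or after their values were seen. The 26 therefore cannot be set against that chance rate. Replicate 1 was the outlying array in 11 of them, replicate 4 in 10, replicate 3 in 4 and replicate 6 in 1. The SD of all features was far highest on replicate 1, with a gap of 0.64 of the range.

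Replicate 4 was far lowest for the median of the integrin, focal adhesion and actin genes (0.596 of the range), Pdgfb (0.747), Marcksl1 (0.726), Skil (0.696), Csf1 (0.695), Clu (0.624), Rhob (0.591), Myorg (0.591), F3 (0.59) and Tgfbi (0.585). Replicate 1 was far lowest for Prxl2c (0.94), Usp2 (0.895), Eng (0.894), Ehf (0.831), Map2k4 (0.798), S100a9 (0.77), Snapin (0.707), Cdk4 (0.695) and the median of the EGFR ligand and immediate early genes (0.761), and far highest for Eif2ak3 (0.622). Replicate 3 was far highest for Slc7a7 (0.94), Ecm2 (0.908), Fos (0.826) and Lix1l (0.697). Replicate 6 was far highest for Smad7 (0.621), at a log2 ratio of 1.35.

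The responses at 6 h and 24 h of primary cells differed in limma for 5 genes, by a log2 difference (6 h minus 24 h) of 2.10 for Sprr2a1, 1.69 for Fabp5, 1.14 for Fam162a, 0.88 for Ppl and 0.83 for Sptbn1. Whether the untreated RNA was shared between the times was not tested.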

How the results depend on the processing

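The count of features called in the response at 6 h was 1 over 7 arrays. It was 3 without replicates 1 and 4, 0 with only these arrays in the fit, 7 (all lower) with each array scaled to the median SD, 16 (7 higher, 9 lower) with array weights, and 0 with the array numbers, grouped by their leading digits, as a random block. It was 13 (all lower) with all 56 arrays, the reversed ones turned and a dye term, 0 with these arrays as deposited, 25 with the sign of replicate 4 turned, and 0 to 9 with 1 array left out. The direction of Klf5 was the same in 18 of 18 alternatives and its call in 10 of 18. However, 1 of the 18 only dropped the arrays labelled Smad3. Each of those was alone in its group in the fit, so dropping them could not change a result. Klf5 stayed at -0.90 (adjusted p 0.0111 in limma) there, and that call among the 10 is no check. The exact permutation p of Klf5 was 0.0312 over 7 arrays, 0.0625 without replicates 1 and 4 (the smallest 5 arrays allow), and 0.0312 to 0.0625 with 1 array left out. As Klf5 was picked on these same arrays, these values are no independent check. Against ras 6 h the count was 0, and it was 1 with only the arrays of both groups, 1 (Cxcl5) with scaled arrays, 64 (8 higher, 56 lower) with array weights, and 0 with 1 array left out. Against 1 h it was 0, and 1 (Klf10) with the random block. Against 24 h it was 5, and it was 1 with only the arrays of both groups, 3 without centring, 12 (11 higher, 1 lower) with scaled arrays, 154 (137 higher, 17 lower) with array weights, 2 with the reversed arrays turned, 0 with these as deposited, and 3 to 5 with 1 array left out. With the replicate number as a block the response gave 1 call, Ank3 (-0.99, adjusted p 0.0013), while Klf5 was at -0.85 (adjusted p 0.076), and the difference from 24 h gave 4. Same-numbered arrays deviated together with correlations of -0.282 to 0.191, so the numbers do not show pairs. For values of single genes, 1286 of 1393 alternatives kept the side of the threshold and moved by less than the SD between arrays where no call was made. These 1286 include the fit without the Smad3 arrays for each value, which could not differ. A further 22 moved by more than that SD, 38 gained a call, 47 lost one, and no called value turned its sign. The causes were not tested.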
